A study of Homo sapiens with 6 samples.

Results

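The genes described here make sterols and fatty acids or govern that synthesis. They are 33 listed genes: 20 enzymes of sterol synthesis, 7 of the fatty acid arm, and 6 regulators and carriers of the SREBP pathway. A gene counted as measured where the array annotation gave a feature that gene's symbol alone, and the feature with the highest mean log2 level stood for it. By this rule 31 of the 33 genes were measured, among 18417 genes in all. Of the other two, FDFT1 was not analysed here, and HSD17B7 was named only on a feature it shares with its pseudogene HSD17B7P2.

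The samples were 3 arrays of CAsE-PE cells and 3 arrays of RWPE-1 cells, all of total RNA. RWPE-1 is a human prostate epithelial line immortalised with a human papillomavirus. CAsE-PE cells are RWPE-1 cells kept in 5 µM sodium arsenite until they were malignant, and were sampled after 30, 33.5 and 35 weeks of exposure. The RWPE-1 cells had no arsenite and were sampled at passages 18, 38 and 42. Both groups were grown in the same serum-free keratinocyte medium, supplemented with EGF and an extract of bovine pituitary. Both derive from 1 line, the sources used here give no passage for the exposed cells, and nothing in the labels says that the arrays came from separate cultures. The p-values therefore measure the spread between these arrays, which may be technical, and exposure cannot be told apart from time in culture.

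Medians over all 33252 features were 91.7 to 92.3 intensity units on the CAsE-PE arrays and 93.3 to 97.2 on the RWPE-1 arrays. Log2 values of the 18417 genes correlated at 0.985 to 0.995 between arrays of a group and at 0.956 to 0.969 between groups. For the counts of markers and list genes here and below, the array median is that of the 18417 genes. Of 10 epithelial markers, 9 lay above it on every array. The keratin KRT5 lay at 11.80 to 12.07 on the log2 scale in CAsE-PE cells and at 12.00 to 12.10 in RWPE-1 cells. Another keratin of the list, KRT14, was called lower in CAsE-PE cells by the test described below. Its log2 difference of -1.60 was the largest fall of the list. All 5 markers of secretory prostate cells (KLK3, KLK2, ACP3, MSMB and HOXB13) lay below the array median on all 6 arrays, so these defining markers of secretory cells were not seen above the typical measured gene. Their summed intensity was 220.7 to 233.8 in CAsE-PE cells and 238.0 to 271.1 in RWPE-1 cells.

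Sterol synthesis starts from acetyl-CoA, runs through mevalonate and the isoprenoid diphosphates to squalene, closes the rings at lanosterol and ends at cholesterol. The SREBP transcription factors, encoded by SREBF1 and SREBF2, are made as membrane proteins of the endoplasmic reticulum, where the escort protein SCAP binds them and INSIG proteins hold the complex while sterols are plentiful. When sterols are scarce the complex moves to the Golgi, the factor is cut free and it enters the nucleus, where SREBF2 products mainly drive sterol genes and SREBF1 products mainly drive fatty acid genes. INSIG1 is itself a target of the pathway.

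SREBP proteins bind sterol regulatory elements and some E-boxes in promoters, often beside CCAAT and GC boxes. Promoters of 28 of the 31 measured genes were found in RefSeq (GRCh38.p14), each as a 300-base window with 250 bases before the annotated start and 50 after it; the genes without one were ACAT2, SQLE and FASN. Each motif was searched on both strands. The 250 bases before the start are given for 5 genes that passed the test described below: SREBF2, INSIG1 and MSMO1 because each holds a motif that SREBP proteins bind, and FADS1 and SCD as the fatty acid genes that moved in opposite directions. Capitals mark the element core TCACNCCA, the E-box TCACGTGA and CCAAT, on either strand.
SREBF2, chr22:41832855-41833104, plus strand: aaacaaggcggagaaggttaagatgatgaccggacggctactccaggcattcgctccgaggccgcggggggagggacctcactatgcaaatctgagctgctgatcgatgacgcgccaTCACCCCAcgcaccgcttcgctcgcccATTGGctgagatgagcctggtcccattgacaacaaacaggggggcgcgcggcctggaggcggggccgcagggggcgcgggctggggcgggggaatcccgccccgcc
INSIG1, chr7:155297628-155297877, plus strand: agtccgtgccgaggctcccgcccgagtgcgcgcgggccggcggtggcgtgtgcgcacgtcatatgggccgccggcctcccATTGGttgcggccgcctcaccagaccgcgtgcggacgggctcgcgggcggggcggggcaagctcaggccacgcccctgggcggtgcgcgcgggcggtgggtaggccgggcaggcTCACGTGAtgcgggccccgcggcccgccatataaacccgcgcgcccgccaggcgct
MSMO1, chr4:165327419-165327668, plus strand: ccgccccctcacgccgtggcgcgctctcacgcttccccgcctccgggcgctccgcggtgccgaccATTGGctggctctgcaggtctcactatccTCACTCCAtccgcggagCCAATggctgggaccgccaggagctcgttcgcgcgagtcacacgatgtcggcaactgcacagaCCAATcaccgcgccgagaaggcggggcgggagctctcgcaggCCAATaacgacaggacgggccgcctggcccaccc
FADS1, chr11:61817004-61817253, minus strand: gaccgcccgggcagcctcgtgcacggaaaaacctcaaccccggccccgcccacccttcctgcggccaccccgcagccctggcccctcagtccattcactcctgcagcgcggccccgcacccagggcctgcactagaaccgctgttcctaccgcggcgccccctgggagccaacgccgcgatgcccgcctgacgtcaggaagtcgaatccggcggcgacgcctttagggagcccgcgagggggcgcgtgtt
SCD, chr10:100346983-100347232, plus strand: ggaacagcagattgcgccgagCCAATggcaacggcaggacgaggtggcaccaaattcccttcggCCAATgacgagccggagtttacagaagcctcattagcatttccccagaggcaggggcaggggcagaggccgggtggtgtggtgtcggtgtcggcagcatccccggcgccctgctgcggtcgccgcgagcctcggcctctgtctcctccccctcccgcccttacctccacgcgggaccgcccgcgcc

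Counted from the start site, SREBF2 held the core TCACNCCA at -133 to -126, and INSIG1 held the E-box at -56 to -49. MSMO1 held the core at -156 to -149 and 4 CCAAT matches, SCD held 2 CCAAT matches and FADS1 held none of the 3 marked motifs. The core was present in 3 of the 28 promoters, those of MVK, MSMO1 and SREBF2 (10.7%), and in 4.8% of 27305 genes with a promoter entry. The E-box was in INSIG1 alone of the 28, and in 1.18% of those 27305 genes, which include genes outside the 18417 measured. CCAAT was in 20 of the 28 (71.4%), against 39.7% of the 27305, and was spread over 13 of 16 sterol synthesis genes (81.2%) and 4 of 6 fatty acid genes (66.7%). GGGCGG, the GC box, was in 26 of the 28 (92.9%), against 48.3% of the 27305. Among the promoters shown no marked matches overlap, while GC boxes overlap each other in SREBF2 and INSIG1. These are matches of letters only, and binding was not measured.

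INSIG1 had the largest difference of the 31 genes. INSIG1, SREBF2, the isomerase gene IDI1, the methylsterol oxidase gene MSMO1 and the desaturase gene FADS1 rose in CAsE-PE cells, while the sterol reductase gene LBR and the desaturase gene SCD fell. The other 24 measured genes did not pass the test. The test was limma's moderated comparison of log2(intensity + 1) over all 18417 genes, with a call at a Benjamini-Hochberg adjusted p under 0.05. The 7 calls made up 22.6% of the 31 genes, beside 17.7% of all genes called. The 5 rises were 16.1%, beside 9.04% of all genes, and the 2 falls were 6.45%, beside 8.71%. Over the 31 genes the median log2 difference (CAsE-PE minus RWPE-1) was 0.15, with 20 above 0 (64.5%), while over all genes the median was -0.06 with 40.5% above 0. These shares of all genes include dim genes, whereas 28 of the 31 lay above the array median on all 6 arrays. With the dimmest 33.3% of genes left out, all 31 stayed. Of the 12278 genes in that fit 1568 were higher and 1262 lower, with a median of -0.01, and HMGCS1 joined the 7 called genes. The arrays of the 2 groups were fully separated for 10 of the 31 genes (32.3%), beside 38.9% of all genes.

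**Figure D1:**
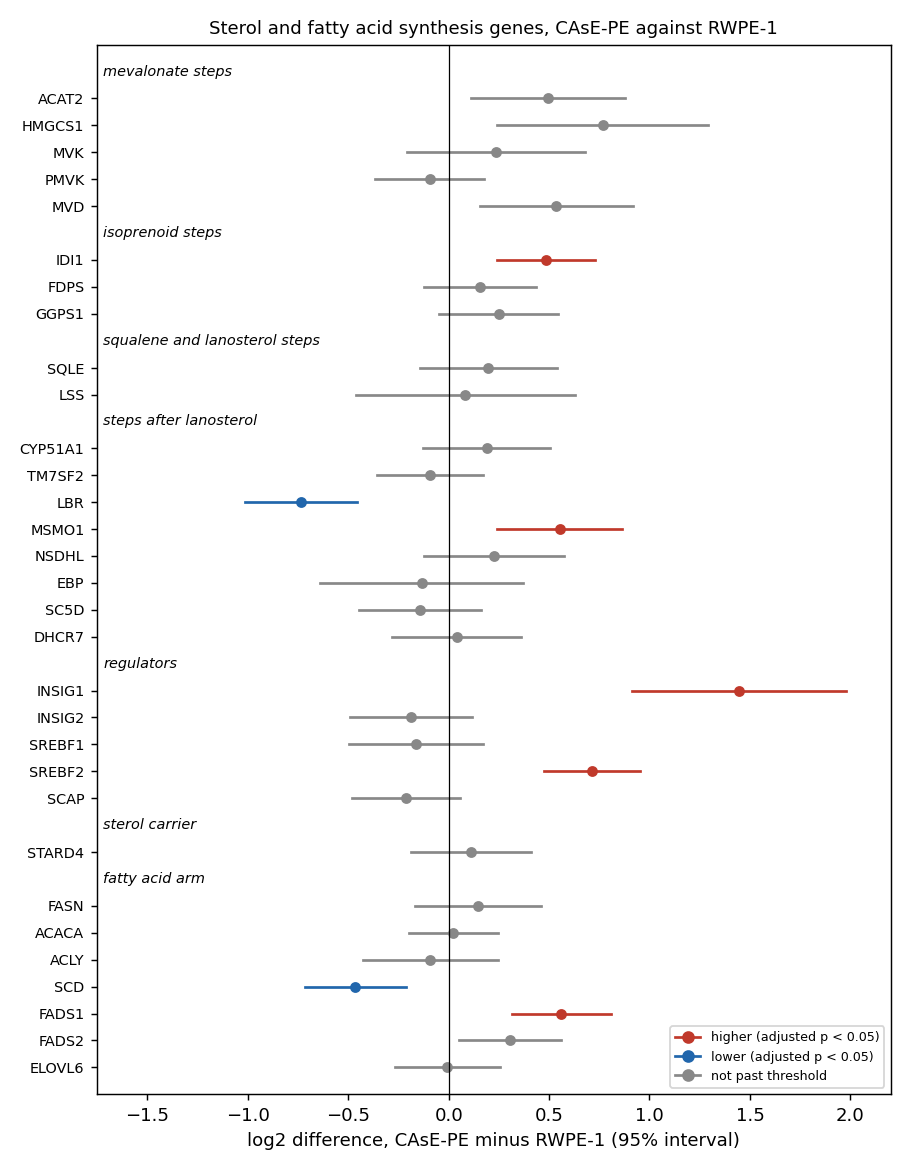
Log2 difference (CAsE-PE minus RWPE-1) of each of the 31 measured genes with its 95% interval from limma, in pathway order. Points right of 0 are higher in CAsE-PE cells, and colour marks the genes past an adjusted p of 0.05. INSIG1 stands furthest to the right at 1.44 and LBR furthest to the left at -0.73, while most intervals cross 0.

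Among the regulators, INSIG1 had log2 levels of 9.57, 9.58 and 9.21 in CAsE-PE cells at 30, 33.5 and 35 weeks, against 8.01, 8.54 and 7.48 in RWPE-1 cells at passages 18, 38 and 42. Every CAsE-PE array lay above every RWPE-1 array, and the RWPE-1 arrays were spread more widely. The means were 9.45 ± 0.21 in CAsE-PE cells and 8.01 ± 0.53 in RWPE-1 cells (SD, n = 3 each), a log2 difference of 1.44 (SE 0.24, 95% interval 0.91 to 1.98, adjusted p = 0.00324) or 2.72-fold. With any single array left out its difference was 1.18 to 1.71 and the adjusted p 0.00157 to 0.0134.

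SREBF2 had log2 levels of 9.72, 9.74 and 9.63 in CAsE-PE cells and of 8.86, 8.97 and 9.11 in RWPE-1 cells at the same times and passages. The groups did not overlap, and the gap between them was larger than the range within either. Its means were 9.70 ± 0.05 in CAsE-PE cells and 8.98 ± 0.13 in RWPE-1 cells (SD, n = 3 each), a log2 difference of 0.71 (SE 0.10, 95% interval 0.48 to 0.95, adjusted p = 0.00189) or 1.64-fold. SREBF2 and INSIG1 each sat among genes that were also higher. The median log2 difference of the 24 nearest measured genes was 0.25 around SREBF2 on chromosome 22 and 0.34 around INSIG1 on chromosome 7. With that shift taken off, SREBF2 kept a log2 difference of 0.49 (adjusted p = 0.0127) and INSIG1 one of 1.14 (adjusted p = 0.0104).

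The other regulators gave no call. SREBF1, the partner gene that mainly serves fatty acid synthesis, had log2 levels of 8.06, 8.35 and 8.25 in CAsE-PE cells and of 8.08, 8.45 and 8.61 in RWPE-1 cells. The groups overlapped, and the log2 difference was -0.16 (95% interval -0.49 to 0.17). INSIG2, the second INSIG gene, gave a log2 difference of -0.19 (95% interval -0.49 to 0.12), and SCAP one of -0.21 (95% interval -0.48 to 0.06). STARD4, which carries sterol between membranes, gave 0.11 (95% interval -0.19 to 0.41). Differences between SREBF2 and SREBF1, or between INSIG1 and INSIG2, were not tested.

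**Figure D2:**
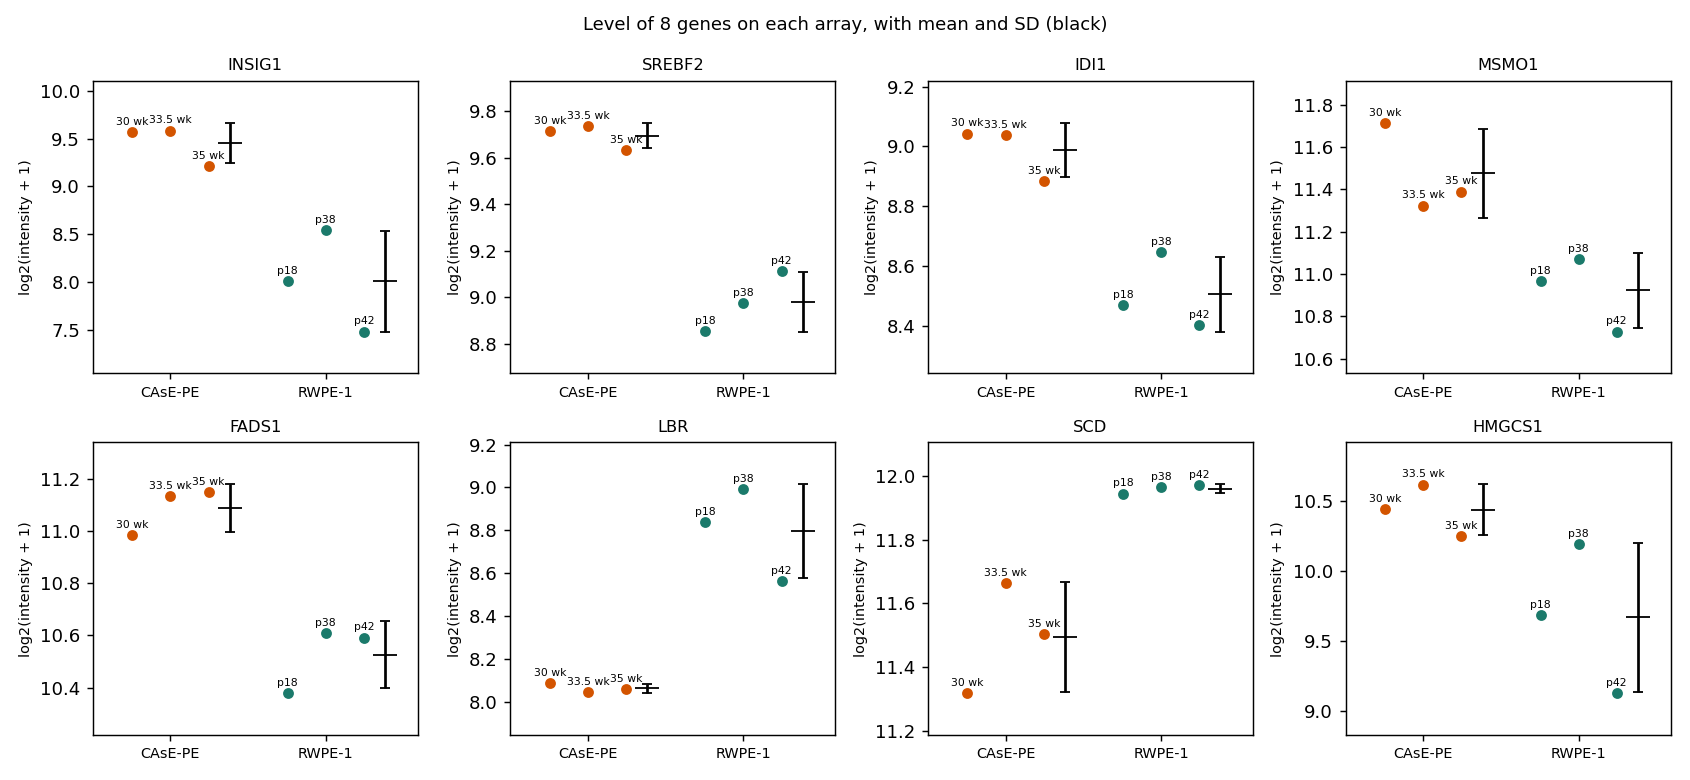
Log2(intensity + 1) of 8 genes on each array, with CAsE-PE cells (30, 33.5 and 35 weeks) left and RWPE-1 cells (passages 18, 38 and 42) right, and the mean and SD beside each group. Each panel has its own scale. The groups are apart in all 8 panels, the RWPE-1 arrays of INSIG1 and HMGCS1 are spread widely with passage 42 lowest, and the SCD arrays of RWPE-1 cells nearly coincide.

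None of the 5 enzymes from acetyl-CoA to isopentenyl diphosphate passed the test, though 3 of them had intervals that lay above 0. HMGCS1, the synthase that makes the precursor of mevalonate, had log2 levels of 10.44, 10.61 and 10.25 in CAsE-PE cells and of 9.68, 10.19 and 9.13 in RWPE-1 cells. The groups did not overlap, but passage 38 came close to the CAsE-PE arrays. The means were 10.44 ± 0.18 in CAsE-PE cells and 9.67 ± 0.53 in RWPE-1 cells (SD, n = 3 each), a log2 difference of 0.77 (SE 0.23, 95% interval 0.24 to 1.29) with an adjusted p of 0.0507. Its difference moved with single arrays, being 1.03 without passage 38 (adjusted p = 0.0128), 0.50 without passage 42 (adjusted p = 0.0996) and 0.68 without 33.5 weeks (adjusted p = 0.133). With limma array weights it was 0.43 (adjusted p = 0.130). HMGCS1 was called in 2 other settings. With the shift of its neighbouring genes taken off its difference was 0.93 (adjusted p = 0.0285), and without the dimmest 33.3% of genes the adjusted p was 0.049.

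ACAT2, the cytosolic thiolase that supplies HMGCS1, had log2 levels of 8.91, 9.55 and 9.11 in CAsE-PE cells and of 8.73, 8.87 and 8.49 in RWPE-1 cells. The groups did not overlap by a narrow margin, the array of 30 weeks being the nearest to RWPE-1. Its log2 difference was 0.50 (95% interval 0.11 to 0.88, adjusted p = 0.0778). Without the array of 30 weeks ACAT2's difference was 0.64 (adjusted p = 0.0300), without 33.5 weeks it was 0.31 (adjusted p = 0.188) and without passage 42 it was 0.39 (adjusted p = 0.20). MVD, the decarboxylase that makes isopentenyl diphosphate, had log2 levels of 8.96, 8.88 and 8.32 in CAsE-PE cells and of 8.16, 8.33 and 8.07 in RWPE-1 cells. Only the array of 35 weeks overlapped with RWPE-1. The log2 difference of MVD was 0.54 (95% interval 0.15 to 0.92, adjusted p = 0.0587). Without the array of 35 weeks it was 0.74 (adjusted p = 0.00915), and with any other array left out it was 0.42 to 0.61 with adjusted p of 0.0957 to 0.153. The 2 kinases between them gave 0.24 for MVK (95% interval -0.21 to 0.68) and -0.09 for PMVK (95% interval -0.36 to 0.18).

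Of the 3 isoprenoid enzymes, IDI1 rose. It interconverts the 2 isoprenoid building blocks and had log2 levels of 9.04, 9.04 and 8.88 in CAsE-PE cells and of 8.47, 8.65 and 8.40 in RWPE-1 cells. All CAsE-PE arrays lay above all RWPE-1 arrays. Means were 8.99 ± 0.09 in CAsE-PE cells and 8.51 ± 0.13 in RWPE-1 cells (SD, n = 3 each), a log2 difference of 0.48 (SE 0.11, 95% interval 0.24 to 0.73, adjusted p = 0.0144) or 1.40-fold. Its call was lost without the RWPE-1 array of passage 18, where the adjusted p was 0.0522. FDPS, which joins the units into farnesyl diphosphate, gave a log2 difference of 0.16 (95% interval -0.12 to 0.44), and GGPS1, which makes the longer geranylgeranyl diphosphate, gave 0.25 (95% interval -0.05 to 0.55).

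The squalene and lanosterol enzymes gave no call. SQLE, the squalene epoxidase, gave a log2 difference of 0.20 (95% interval -0.14 to 0.54). LSS, which closes the sterol rings, had log2 levels of 8.66, 9.75 and 9.31 in CAsE-PE cells and of 9.13, 9.38 and 8.95 in RWPE-1 cells. The 3 CAsE-PE arrays spanned the whole RWPE-1 range, with 30 weeks below it and 33.5 weeks above it. Its log2 difference of 0.08 (95% interval -0.46 to 0.63) had the widest interval of the set.

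After lanosterol, MSMO1 rose and LBR fell, and the other 6 enzymes gave no call. MSMO1 takes methyl groups off the sterol and had log2 levels of 11.71, 11.32 and 11.39 in CAsE-PE cells and of 10.97, 11.07 and 10.73 in RWPE-1 cells. The groups did not overlap. Its means were 11.48 ± 0.21 in CAsE-PE cells and 10.92 ± 0.18 in RWPE-1 cells (SD, n = 3 each), a log2 difference of 0.55 (SE 0.14, 95% interval 0.24 to 0.86, adjusted p = 0.0237) or 1.47-fold. The call was lost without the array of 30 weeks (adjusted p = 0.0507), 35 weeks (0.0532), passage 18 (0.0549) or passage 42 (0.0651), and after subtracting the shift of the neighbouring genes (log2 difference 0.52, adjusted p = 0.0550).

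LBR, a sterol reductase that is also the lamin B receptor of the inner nuclear membrane, had log2 levels of 8.09, 8.04 and 8.06 in CAsE-PE cells and of 8.84, 8.99 and 8.56 in RWPE-1 cells. The CAsE-PE arrays nearly coincided and lay below all RWPE-1 arrays. The means were 8.06 ± 0.02 in CAsE-PE cells and 8.80 ± 0.22 in RWPE-1 cells (SD, n = 3 each), a log2 difference of -0.73 (SE 0.12, 95% interval -1.01 to -0.46, adjusted p = 0.00372) or 0.601-fold. The 24 measured genes nearest to LBR on chromosome 1 had a median log2 difference of -0.45. With that taken off, LBR's log2 difference was -0.30 with an adjusted p of 0.112. TM7SF2, the other reductase of the same step, gave -0.09 (95% interval -0.36 to 0.17).

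The remaining enzymes of the last steps had intervals that included 0. CYP51A1, the lanosterol demethylase, gave a log2 difference of 0.19 (95% interval -0.13 to 0.51), and its other feature gave 0.14. NSDHL, a sterol dehydrogenase, gave 0.23 (95% interval -0.13 to 0.58), and SC5D, a sterol desaturase, gave -0.14 (95% interval -0.44 to 0.16). DHCR7, which makes cholesterol in the final reduction, gave 0.04 (95% interval -0.28 to 0.36). EBP, the sterol isomerase, had log2 levels of 9.10, 10.04 and 9.83 in CAsE-PE cells and of 9.82, 9.98 and 9.57 in RWPE-1 cells. As for LSS, the array of 30 weeks was the lowest of all 6, and the log2 difference was -0.13 (95% interval -0.64 to 0.37).

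In the fatty acid arm both called genes encode desaturases. FADS1, the delta-5 desaturase of polyunsaturated fatty acids, had log2 levels of 10.98, 11.13 and 11.15 in CAsE-PE cells and of 10.38, 10.61 and 10.59 in RWPE-1 cells. Every CAsE-PE array was above every RWPE-1 array. Means were 11.09 ± 0.09 in CAsE-PE cells and 10.53 ± 0.13 in RWPE-1 cells (SD, n = 3 each), a log2 difference of 0.56 (SE 0.11, 95% interval 0.32 to 0.81, adjusted p = 0.00728) or 1.48-fold. Leaving out any 1 array kept the call of FADS1, with adjusted p between 0.00808 and 0.0347. FADS2, its neighbour on chromosome 11 and the first desaturase of the same route, had log2 levels of 10.90, 11.20 and 11.00 in CAsE-PE cells and of 10.71, 10.81 and 10.66 in RWPE-1 cells. Its groups did not overlap either, but the log2 difference of 0.31 (95% interval 0.05 to 0.56) did not pass the test (adjusted p = 0.0935).

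SCD, which makes monounsaturated fatty acids, had log2 levels of 11.32, 11.66 and 11.50 in CAsE-PE cells and of 11.94, 11.96 and 11.97 in RWPE-1 cells. All CAsE-PE arrays lay below the RWPE-1 arrays, which nearly coincided. The means were 11.50 ± 0.17 in CAsE-PE cells and 11.96 ± 0.01 in RWPE-1 cells (SD, n = 3 each), a log2 difference of -0.46 (SE 0.11, 95% interval -0.72 to -0.21, adjusted p = 0.0201) or 0.725-fold. The fall was no longer called without the array of 35 weeks (adjusted p = 0.0637), passage 18 (0.0559) or passage 38 (0.0758). The genes around SCD on chromosome 10 had a median log2 difference of -0.20, and with it taken off SCD's was -0.24 with an adjusted p of 0.184.

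The enzymes that make and lengthen saturated chains gave no call. FASN, the fatty acid synthase, had log2 levels of 10.52, 10.83 and 10.58 in CAsE-PE cells and of 10.35, 10.76 and 10.38 in RWPE-1 cells, with overlap and a log2 difference of 0.15 (95% interval -0.17 to 0.46). Its neighbours on chromosome 17 had a median log2 difference of 0.38, and with that taken off FASN's was -0.15. ACACA, the acetyl-CoA carboxylase, gave 0.02 (95% interval -0.20 to 0.24). ACLY, which makes cytosolic acetyl-CoA from citrate for both arms, gave -0.09 (95% interval -0.43 to 0.24). ELOVL6, the elongase of saturated chains, gave -0.01 (95% interval -0.27 to 0.25).

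**Figure D3:**
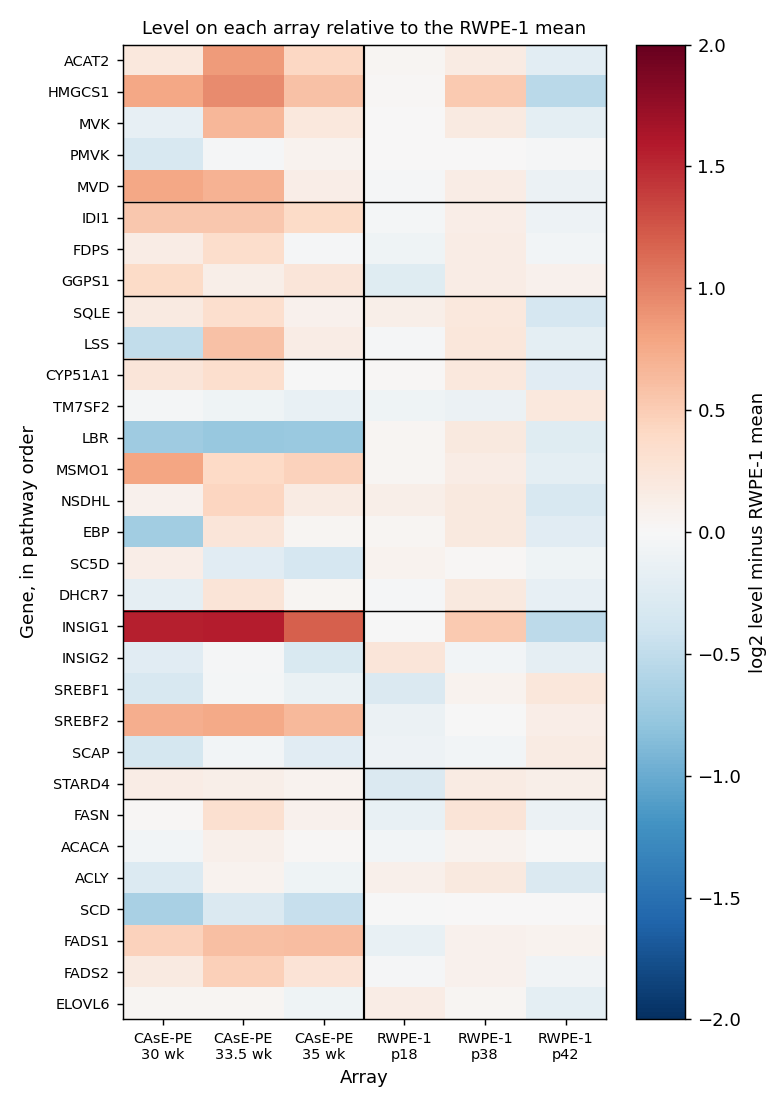
Log2 level of each of the 31 genes on each array minus that gene's RWPE-1 mean, with CAsE-PE arrays left and RWPE-1 arrays right of the line and genes in pathway order. INSIG1 and SREBF2 are above the RWPE-1 mean and LBR and SCD below it on all 3 CAsE-PE arrays, and among the RWPE-1 arrays most sterol genes are highest at passage 38 and lowest at passage 42.

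Set side by side, the sterol synthesis genes had 2 of 18 measured genes higher and 1 lower (16.7% called, near the 17.7% of all genes), with a median log2 difference of 0.19 and 13 above 0 (72.2%). The fatty acid arm had 1 of 7 higher and 1 lower (28.6% called, beside the same 17.7%), with a median of 0.02 and 4 above 0. The regulators and the carrier had 2 of 6 higher and 0 lower (33.3% called, beside 9.04% of all genes higher and 8.71% lower), and those 2 were also the only ones with an unadjusted p under 0.05. These counts are small and move with single arrays and settings. Without passage 18 the sterol genes had 0 higher, without passage 42 they had 1 and without passage 38 they had 3. With the genes' chromosomal neighbours taken into account neither arm had a gene lower, and against a 1.5-fold change neither arm nor the regulators had a call. The difference between the 2 arms' medians was 0.17. Per array, the sterol median minus the fatty acid median was 0.11, 0.24 and 0.08 in CAsE-PE cells at 30, 33.5 and 35 weeks, against 0.03, 0.09 and -0.13 in RWPE-1 cells at passages 18, 38 and 42. The groups overlap, since the CAsE-PE array of 35 weeks lay below the RWPE-1 array of passage 38. The difference between the arms was 0.05 without the array of passage 42, 0.09 without passage 18 and 0.10 without 33.5 weeks, at most 0.24 with any other array left out, and 0.10 with means in place of medians. With limma array weights the difference between the arms' medians was 0.07.

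**Figure D4:**
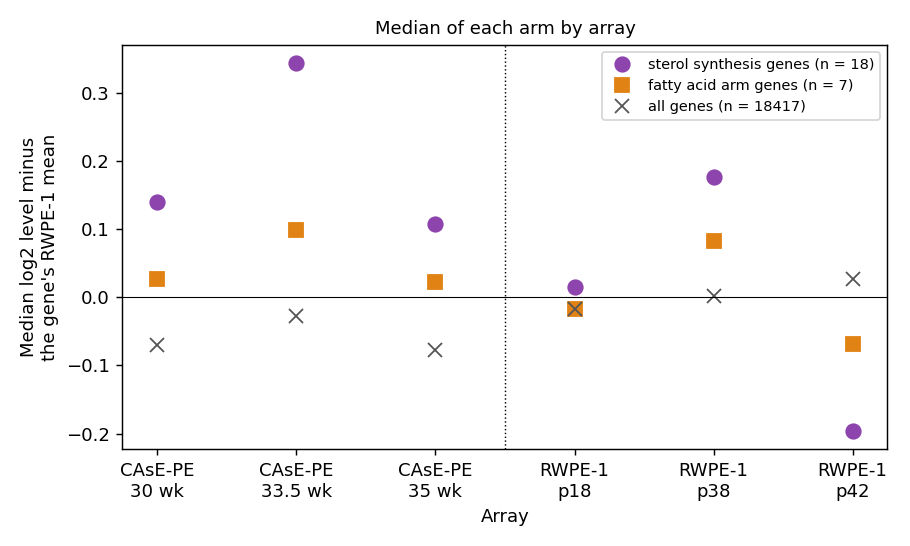
Median log2 level relative to each gene's RWPE-1 mean, per array, for the 18 sterol synthesis genes, the 7 fatty acid genes and all 18417 genes. The sterol median is highest at 33.5 weeks (0.34) and lowest at passage 42 (-0.20), and it moves more from array to array than the fatty acid median.

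Many sterol genes shared an order of arrays within RWPE-1 cells. Their median relative to the RWPE-1 mean was 0.14, 0.34 and 0.11 on the CAsE-PE arrays of 30, 33.5 and 35 weeks and 0.01, 0.18 and -0.20 on the RWPE-1 arrays of passages 18, 38 and 42. The array of passage 38 thus stood above the CAsE-PE arrays of 30 and 35 weeks. Among the 18 sterol synthesis genes, 13 were highest at passage 38 and lowest at passage 42 of the 3 RWPE-1 arrays (72.2%), a pattern of 15.0% of all genes. INSIG1 showed it too, with 8.54 at passage 38 and 7.48 at passage 42, whereas SREBF2 did not. In the fatty acid arm 2 of 7 genes had it, ACLY and FADS2. All genes together had a median of -0.02, 0.00 and 0.03 on those arrays. The order was singled out from several possible ones and was not a planned comparison, so its share is description only. The genes share the arrays, so they do not count as independent observations of the pattern, and which property of the cultures or arrays goes with it was not tested.

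Among the CAsE-PE arrays, 5 of the 7 fatty acid genes (71.4%) were lowest at 30 weeks and highest at 33.5 weeks, against 6 of 18 sterol genes (33.3%) and 20.5% of all genes. The 5 were FASN, ACACA, ACLY, SCD and FADS2. This order too was singled out without being planned, and its share is description only. A linear trend was fitted for passage within RWPE-1 and for weeks within CAsE-PE, with 2 residual degrees of freedom. None of the 31 genes was called for passage, with 0.0217% of all genes called. An unadjusted p under 0.05 for passage was seen for 1072 of all 18417 genes and for 2 of the 31 (SREBF1 and STARD4). For weeks 0 of the 31 were called, with 0.25% of all genes called. Here an unadjusted p under 0.05 was seen for 2072 of all 18417 genes and for 5 of the 31. Of these EBP had a slope of 0.17 log2 units per week (unadjusted p = 0.0102, adjusted p = 0.249), LSS one of 0.16 and PMVK one of 0.08, while SC5D had -0.10 and MVD -0.11. With 3 arrays per group, 1 array can set such a slope.

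Genes of 8 neighbouring lipid lists are given next, and the share called in each stands beside the 17.7% of all genes called (9.04% higher and 8.71% lower). Of 32 further genes of fatty acid and glycerolipid synthesis, 7 rose and 4 fell (34.4% called, beside 17.7% of all genes), with a median log2 difference of 0.10. PNPLA3, a lipid droplet hydrolase and a known SREBF1 target, had log2 levels of 9.28, 8.68 and 8.99 in CAsE-PE cells and of 6.23, 6.80 and 6.82 in RWPE-1 cells. The groups were far apart, and the log2 difference was 2.37 (adjusted p = 8.26e-05). ACSL1, which activates long-chain fatty acids, rose by 1.82, and ME1, the malic enzyme that supplies NADPH, rose by 1.37 on the log2 scale. ACSS2, which makes acetyl-CoA from acetate, is given beyond the 3 largest rises because it feeds both arms, a choice made after its values were seen, and had 10.97, 10.59 and 10.52 in CAsE-PE cells against 8.85, 9.30 and 10.02 in RWPE-1 cells. Its groups did not overlap and its log2 difference was 1.30 (adjusted p = 0.00871). The RWPE-1 arrays were spread widely and rose in order of passage, with passage 42 nearest to the CAsE-PE arrays. In the linear trend ACSS2's passage slope was 0.041 log2 units per passage (unadjusted p = 0.00256, adjusted p = 0.540). Among called genes the largest falls were those of ELOVL7, an elongase (-0.89), DGAT2, which makes triglyceride (-0.65), and ELOVL3, another elongase (-0.34). ELOVL3 was dim, with mean intensities of 41.4 units in CAsE-PE cells and 52.8 in RWPE-1 cells. ELOVL4 had a larger fall than ELOVL3 (-0.64) but was not called (adjusted p = 0.0535).

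Sterol uptake, storage and carriage gave 3 rises and 2 falls among 16 genes (31.2% called, beside 17.7% of all genes), with a median of -0.01. VLDLR, a lipoprotein receptor, had log2 levels of 8.14, 7.93 and 7.87 in CAsE-PE cells and of 6.81, 6.50 and 6.72 in RWPE-1 cells, without overlap. Its log2 difference was 1.31 (adjusted p = 0.000175). GRAMD1B, a sterol carrier at membrane contacts, rose by 0.87 and OSBPL2, an oxysterol-binding protein, by 0.83, while NCEH1, a cholesteryl ester hydrolase, fell by 0.70 and NPC2, which carries cholesterol out of lysosomes, fell by 0.60. Among 3 other genes of sterol synthesis, ERG28, a scaffold of the demethylation enzymes, rose by 0.37 and 0 fell (33.3% called).

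Of 16 genes that process or turn over SREBP or act with it, 2 rose (12.5%, beside 9.04% of all genes) and 3 fell (18.8%, beside 8.71%), with a median of -0.07. RNF145, a ubiquitin ligase of the sterol response, rose by 0.67 and MBTPS1, the protease that makes the first cut in SREBP, rose by 0.33, whereas ERLIN1, a cholesterol-binding protein of the endoplasmic reticulum, fell by 0.44. NFYA and NFYC, subunits of the factor that binds CCAAT, fell by 0.44 and 0.40. Sterol efflux and LXR target genes gave 4 rises and 2 falls among 13 (46.2% called, beside 17.7% of all genes), with a median of -0.12. Of the 13, 11 lay below the array median on all arrays, and no detection calls show whether they were present. CYP39A1, an oxysterol hydroxylase, rose by 1.38, ABCA2 by 0.86 and ABCG1, a sterol exporter, by 0.55, while ABCA1, another exporter, fell by 0.48 and CYP27A1, a mitochondrial sterol hydroxylase, by 0.40. CYP39A1 had a mean intensity of 59.3 units in CAsE-PE cells and 22.1 in RWPE-1 cells. ABCA1 (37.2 and 52.2) and CYP27A1 (39.2 and 52.1) were similarly dim, whereas ABCA2 was brighter (476.1 and 264.3).

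In the use of isoprenoids 0 of 14 genes rose, and PDSS1, which makes the side chain of ubiquinone, fell by 0.95 (7.14% called, beside 17.7% of all genes). The median of that list was -0.03. Fatty acid oxidation gave 4 rises and 2 falls among 22 genes (27.3% called), with a median of -0.04. It was led by the isomerase ECI2 (1.60), the pyruvate dehydrogenase kinase PDK4 (0.77) and the fatty acid receptor PPARA (0.70), with falls of CPT1C (-0.89) and HADHB (-0.39). Fatty acid uptake and lipid droplet genes gave 3 rises and 2 falls among 20 (25% called, beside 17.7% of all genes), with a median of -0.01. ABHD5, which activates triglyceride lipase, rose by 0.72, HILPDA, which inhibits it, by 0.68, and the receptor PPARG by 0.44, while CIDEB fell by 0.58 and SLC27A1 by 0.47.

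**Figure D5:**
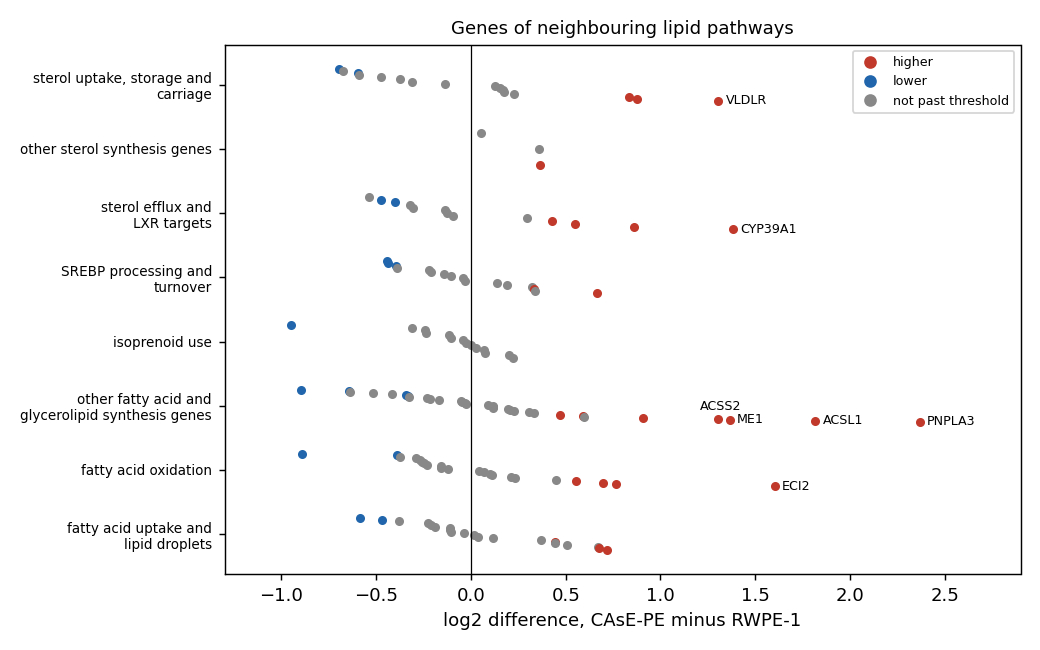
Log2 difference (CAsE-PE minus RWPE-1) of each gene in 8 lists of neighbouring lipid pathways, with colour for genes past an adjusted p of 0.05. PNPLA3, ACSL1, ME1, ACSS2, ECI2, CYP39A1 and VLDLR lie above 1.

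Most markers of other cell types lay below the array medians. Of 7 adipocyte and hepatocyte markers 0 were called and 6 lay below the array median on all arrays, with summed intensities of 380.5 to 426.4 in CAsE-PE cells and 419.9 to 474.6 in RWPE-1 cells. Of 9 fibroblast markers 1 rose, 1 fell and 7 lay below the array median throughout, with sums of 976.3 to 1111.5 in CAsE-PE cells and 731.3 to 777.1 in RWPE-1 cells. Leukocyte markers gave 0 rises and 2 falls of 8, 7 of them below the array median throughout, with sums of 759.8 to 1061.3 in CAsE-PE cells and 1323.2 to 1600.4 in RWPE-1 cells, while PTPRC, which defines these cells, lay at 3.73 to 3.86 in CAsE-PE cells and 3.84 to 3.99 in RWPE-1 cells on the log2 scale. Endothelial markers gave 0 rises and 1 fall of 7, 6 of them below the array median throughout, with sums of 361.8 to 393.7 in CAsE-PE cells and 415.5 to 457.8 in RWPE-1 cells. Epithelial markers gave 3 rises (DSP, CLDN4 and CDH1) and 1 fall (KRT14) of 10, with log2 differences from -1.60 to 1.06 over the list. The part of these markers in the results above was not tested. Since each array holds RNA of a whole culture, fewer cells expressing a gene and less RNA per cell cannot be told apart.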

How the data were processed

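The values the authors deposited are linear intensities, 1 for each of 33252 features on each of 6 arrays. How they were background-corrected, summarised and normalised is not given in the sources used here. They come without detection calls, which leaves dim genes without a test of presence. In the platform annotation 19460 features carry 1 symbol and 1754 several; it lacks 12038. The feature with the highest mean log2 value stood for each of 18417 genes.

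Values were taken as log2(intensity + 1), which understates fold changes of dim genes. The 3 CAsE-PE and 3 RWPE-1 arrays were compared in limma (version 3.58.1, R 4.3.3) by lmFit with eBayes and a two-sided test on 4 residual degrees of freedom. P-values were adjusted over all genes by Benjamini-Hochberg, with a call under 0.05, and all adjusted p-values are limma's. Intervals are 95%. Passage and weeks were fitted as trends beside the group. Precision is limited by 3 arrays per group. The fits were tested on simulated data.

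Lists were counted, not tested. All 31 measured genes of the 33 listed are reported. Of each of the 8 neighbouring lists the 3 largest rises and falls among called genes are given. Markers are given as counts and level ranges. The members and lists were chosen with earlier results of these data known. Alternatives were quantile normalisation, median centring, a pseudocount of 16, omission of the dimmest 33.3% of genes, the mean of a gene's features, trended and robust variance, array weights, limma's treat at 1.5-fold, subtraction of the median shift of the 24 nearest measured genes (ordered by RefSeq, GRCh38.p14), and each array left out. Scripts used Python 3.11.15, pandas 2.3.3 and numpy 2.4.6.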

Additional observations from a re-analysis of the deposited data

Results flagged for a closer look

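The feature shared by HSD17B7, a reductase of sterol synthesis, and its pseudogene HSD17B7P2 was left out of the set because it carries 2 gene symbols, yet its groups did not overlap. Its log2 levels were 8.42, 8.45 and 8.17 in CAsE-PE cells at 30, 33.5 and 35 weeks and 7.30, 7.68 and 7.77 in RWPE-1 cells at passages 18, 38 and 42. The means were 8.35 ± 0.15 in CAsE-PE cells and 7.58 ± 0.25 in RWPE-1 cells (SD, n = 3 each), a log2 difference of 0.76 (SE 0.14, limma adjusted p = 0.00645 in a fit of 21214 features with 1 or several symbols, chosen after seeing the data). Signal of the gene and of the pseudogene cannot be told apart on this feature.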

How the results depend on the processing

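Called genes of the set kept direction and call in 87 of 105 refits and lost the call in 18; for uncalled genes 330 refits gave no call and the same sign, 7 gave a call and 23 the opposite sign. With array weights 2596 genes were higher and 2746 lower over all, and 2 fatty acid genes were higher. The arms' median difference under these weights was 0.074. Against a 1.5-fold change 126 genes were higher and 230 lower over all, and 0 of the sterol genes, fatty acid genes and regulators were called. After subtracting the shift of the neighbouring genes 0 sterol and 0 fatty acid genes were lower (LBR and SCD lost their calls), and TM7SF2 (0.048), EBP (0.029), FASN (-0.15), ACLY (0.039) and ELOVL6 (0.022) changed sign. Quantile normalisation turned DHCR7 (-0.017) and ACACA (-0.013), centring ELOVL6 (0.017) and array weights DHCR7 (-0.022). With 1 array left out, calls over all were 949 to 1665 higher and 939 to 1519 lower, both lowest without passage 38. Sterol genes higher were 0 to 3, with 0 without passage 18 and 1 without passage 42, and fatty acid genes lower were 0 to 1. The arms' median difference was 0.053 to 0.24. These refits also turned uncalled genes, whose differences ran from -0.17 to 0.024 for PMVK, -0.32 to 0.14 for EBP, -0.17 to 0.37 for LSS, -0.069 to 0.15 for DHCR7, -0.015 to 0.061 for ACACA, -0.10 to 0.071 for ELOVL6, -0.032 to 0.19 for STARD4, -0.24 to 0.0061 for ACLY and -0.15 to 0.014 for TM7SF2. The median of all genes was -0.06, -0.01 after quantile normalisation and -0.04 after centring. The cause of these shifts was not tested. No paired analysis was possible because replicate numbers were given in accession order and the labels tie no passage to a week. The passage and weeks trends were not refitted with trended variance, array weights, the 1.5-fold test or an array left out. Without detection calls, no limit from signal over background can be given.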
